A study of Mus musculus with 14 samples.

Results

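Genes of cholesterol synthesis and efflux were followed in macrophages sorted from the lamina propria (LP) of the colon and cecum of mice with and without the IL-10 receptor. The group holds 35 genes, taken by name from the table of read counts, and all 35 were present among the 24982 genes listed there. In the table's spelling, 17 are synthesis genes (ACAT2, HMGCS1, MVK, PMVK, MVD, IDI1, FDPS, FDFT1, SQLE, LSS, CYP51, TM7SF2, MSMO1, NSDHL, HSD17B7, SC5D and DHCR7). A further 5 regulate synthesis (SREBF1, SREBF2, SCAP, INSIG1 and INSIG2), and 5 serve uptake and handling inside the cell (STARD4, NPC1, NPC2, LIPA and SOAT1). The remaining 8 belong to the LXR and efflux arm (NR1H2, NR1H3, ABCA1, ABCG1, APOE, MYLIP, CH25H and CYP27A1). They were chosen by their known roles, with earlier results of these data known.

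All mice were C57BL/6, 5 weeks old and carried the colitis susceptibility locus *Cdcs1*. The WT mice carried *Cdcs1* without either deletion below, per the labels. The IL10RAKO mice were *Il10ra* -/- as well, and in the DKO mice both *Il10ra* -/- and *Ccr2* -/- were present. Each of these groups had 4 mice, with 1 library per mouse. *Il10ra* encodes a chain of the IL-10 receptor, and *Ccr2* encodes a chemokine receptor that monocytes use to leave the bone marrow and enter tissue. Neither deletion was limited to macrophages. The paper reports spontaneous colitis in mice of the IL10RAKO genotype and less severe colitis in DKO, and no histologic colitis in WT. The WT mice in its histology figure were heterozygous for both deletions. The effects of genotype and of inflammation on these macrophages thus cannot be told apart here. Another WT library (mouse 11) and the only CCR2KO library (*Cdcs1*, *Ccr2* -/-, mouse 6) were in no main comparison.

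A cell makes cholesterol from acetyl-CoA through the mevalonate pathway, and when its membranes run low in sterol the chaperone SCAP carries SREBP transcription factors to the Golgi, where they are released to switch the synthesis genes on. INSIG proteins hold SCAP back when sterol is plentiful. Surplus sterol instead activates the LXR nuclear receptors, which raise the exporters ABCA1 and ABCG1 and, in macrophages, apolipoprotein E. Macrophages take up large amounts of lipid from dead cells, and both arms are known to change with their inflammatory state.

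Upstream sequences of the members are shown because the synthesis genes are classical SREBP targets, whose promoters tend to pair a sterol response element with binding boxes of NF-Y. They are the 250 bases before the outermost RefSeq start (GRCm38.p6), written 5′ to 3′ on the gene's strand. Capitals mark the NF-Y box CCAAT, read on either strand, and the sterol response element TCACNCCAC. *Hmgcs1* (chr13:119690101-119690350, plus strand), which makes an early intermediate of the mevalonate pathway, was the only one of the 29 members with a window to hold the latter. *Pmvk* (chr3:89454291-89454540, plus strand) and *Mvd* (chr8:122443423-122443672, minus strand) are the synthesis genes that were called below. *Nr1h3* (chr2:91195117-91195366, minus strand) and *Apoe* (chr7:19699189-19699438, minus strand) stand for the LXR and efflux arm and held neither motif.
Hmgcs1: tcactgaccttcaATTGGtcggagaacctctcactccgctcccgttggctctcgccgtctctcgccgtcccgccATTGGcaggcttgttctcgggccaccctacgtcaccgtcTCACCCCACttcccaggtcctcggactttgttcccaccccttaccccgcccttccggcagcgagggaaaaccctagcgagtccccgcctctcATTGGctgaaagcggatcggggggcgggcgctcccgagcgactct
Pmvk: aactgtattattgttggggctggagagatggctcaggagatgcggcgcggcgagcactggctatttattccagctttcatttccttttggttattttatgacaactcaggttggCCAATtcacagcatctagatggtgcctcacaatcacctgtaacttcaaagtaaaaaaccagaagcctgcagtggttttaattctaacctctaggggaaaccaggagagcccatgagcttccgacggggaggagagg
Mvd: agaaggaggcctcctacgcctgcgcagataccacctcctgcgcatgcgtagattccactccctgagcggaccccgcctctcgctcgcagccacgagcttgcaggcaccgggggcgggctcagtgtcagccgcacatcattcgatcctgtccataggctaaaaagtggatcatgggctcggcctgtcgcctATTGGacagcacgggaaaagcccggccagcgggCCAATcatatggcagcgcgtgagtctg
Nr1h3: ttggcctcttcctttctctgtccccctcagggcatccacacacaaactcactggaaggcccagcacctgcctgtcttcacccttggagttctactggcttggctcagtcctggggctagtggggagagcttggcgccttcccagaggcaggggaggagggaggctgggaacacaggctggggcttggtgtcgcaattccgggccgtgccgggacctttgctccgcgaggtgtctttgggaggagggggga
Apoe: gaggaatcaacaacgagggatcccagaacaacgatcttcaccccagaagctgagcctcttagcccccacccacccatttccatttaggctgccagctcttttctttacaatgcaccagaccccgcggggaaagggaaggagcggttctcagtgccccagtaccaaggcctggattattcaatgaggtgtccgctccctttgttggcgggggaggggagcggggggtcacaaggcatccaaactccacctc

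A window was found for 29 members, and none was at hand for *Abcg1*, *Fdps*, *Npc1*, *Sqle*, *Fdft1* and *Stard4*. Both strands were searched, and a gene with several starts counted once if any of its windows held the motif. CCAAT was present upstream of 13 of 14 synthesis genes, 4 of 5 SREBP regulators, 3 of 3 handling genes and 2 of 7 LXR and efflux genes, against 39.9% of the 10311 genes tested below that had a window and 37.5% of all 27025 genes with one. The GC box GGGCGG was present in 13 of 14, 5 of 5, 1 of 3 and 3 of 7 in the same order, against 61.9% of the genes tested and 35.4% of all. The E-box CACGTG was present in 6 of the 29 members (9.82% of the genes tested, 6.86% of all). TCACNCCAC was present in 1 of the 29 (1.22% of the genes tested and of all). None of these motifs contains another, but neighbouring matches can share bases. A match describes the letters in the window only.

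Libraries held 13085287 to 21216468 counted reads in the 12 mice compared, and a member had between 45 reads (*Tm7sf2*) and 504516 reads (*Apoe*) in a library. Reads per gene were scaled with edgeR's TMM factors to CPM, a unit that makes libraries of different depth comparable, and 3 reads, the smallest count regarded as measurable, were worth 0.124 to 0.211 CPM. The labels held for the targeted genes, since *Il10ra* was at 217 to 380 CPM in WT and 3.41 to 11.2 CPM in the 8 knockout libraries, and *Ccr2* was at 361 to 702 CPM in WT and IL10RAKO and 3.92 to 6.68 CPM in DKO. All 10 macrophage markers were detected, with a sum of 26664 to 54832 CPM, of which *H2-Ab1* was the largest part. Single markers moved in opposite directions. *Cd14* was at 1420 to 1820 CPM in WT and 3819 to 7903 CPM in the knockouts. *Adgre1* was at 641 to 885 CPM in WT and 228 to 519 CPM in DKO, and *Cx3cr1* at 319 to 431 and 135 to 217 CPM. Both overlapped between WT and IL10RAKO. The 6 fibroblast markers were all present and summed to 294 to 577 CPM in WT against 15.0 to 53.7 CPM in IL10RAKO and 16.1 to 67.0 CPM in DKO. The 3 genes of cells that the sort gated out (*Ly6c2*, *Ly6g* and *Itgae*) summed to 6.13 to 10.0 CPM in WT, 42.6 to 179.9 CPM in IL10RAKO and 80.3 to 93.5 CPM in DKO, and the 5 neutrophil markers to 75.1 to 122 CPM, 137 to 303 CPM and 155 to 263 CPM. Of these 5, *S100a9* had 0 reads in each WT mouse and at least 10 reads in each knockout mouse. *Retnlg*, another of them, overlapped between WT and both knockouts. The 6 epithelial markers summed to 946 CPM in WT mouse 10 and to at most 182 CPM in the other 11 libraries. The 5 B and plasma cell markers summed to 452 to 1677 CPM in WT, 338 to 944 CPM in IL10RAKO and 403 to 1676 CPM in DKO. These ranges overlapped. The part that all these cells play in the results was not tested, and fewer cells of a type and less RNA per cell cannot be told apart in sorted bulk RNA.

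Per kilobase of exon, the 35 genes spanned a wide range of levels in WT. *Apoe*, the apolipoprotein that carries cholesterol away from macrophages, was the most abundant at 8088 ± 1466 CPM per kb (SD, n = 4), and took 1.66% to 2.40% of all reads of a WT library. The sterol hydroxylase gene *Cyp27a1* followed at 80.9 ± 23.4 CPM per kb and the lysosomal sterol carrier gene *Npc2* at 54.3 ± 9.80 CPM per kb. The most abundant synthesis gene was *Cyp51*, a sterol demethylase, at 18.2 ± 3.60 CPM per kb, and the least abundant was *Lss*, the cyclase that makes lanosterol, at 1.32 ± 0.56 CPM per kb. *Nr1h2*, which encodes LXRβ, stood at 31.4 ± 4.25 CPM per kb and *Nr1h3*, which encodes LXRα, at 12.1 ± 3.32 CPM per kb, with ranges over the 4 mice that did not overlap. Exon length was the union of all annotated exons, which lowers this measure for genes with long alternative exons.

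**Figure D1:**
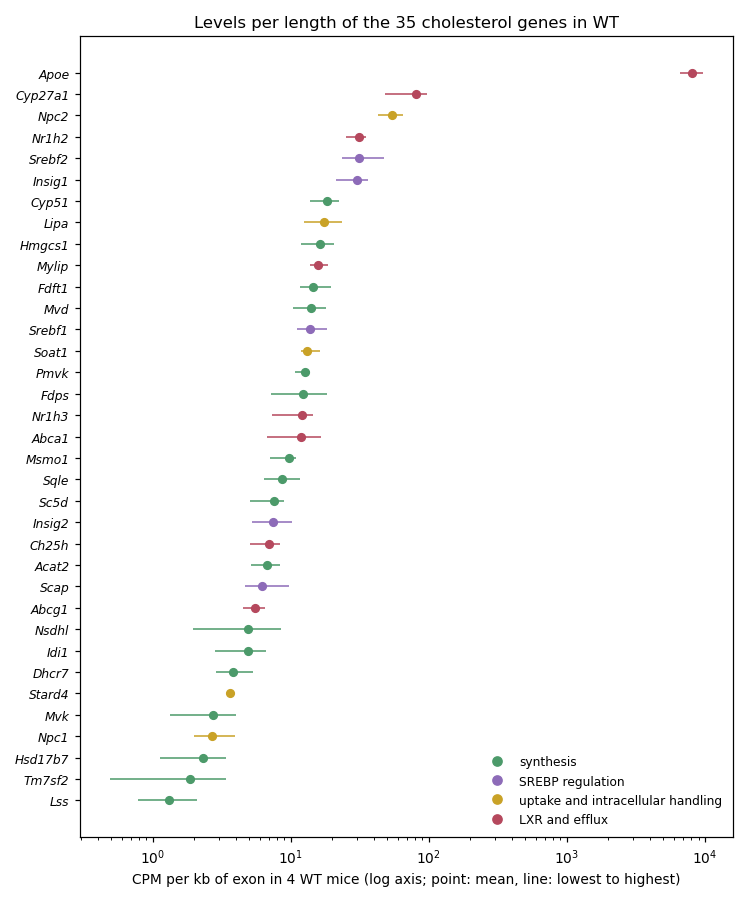
Level of each of the 35 genes in WT macrophages, as CPM per kb of exon on a log axis, with the mean (point) and the range (line) over 4 WT mice, coloured by role. *Apoe* stands alone at 8088 CPM per kb, and the synthesis genes lie between 1.32 and 18.2 CPM per kb.

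Against WT, a small number of members from each arm changed, and their share was close to that among all genes. In IL10RAKO macrophages 6 of 35 members were higher and 1 was lower (20% called), when 15.8% of the 13136 genes tested were called, 8.7% as higher and 7.1% as lower. In DKO macrophages 5 of 35 were higher and 3 were lower (22.9% called), when 18.5% of all genes were called, 9.23% as higher and 9.22% as lower. A gene was called at an adjusted p-value under 0.05 in edgeR's quasi-likelihood test with Benjamini-Hochberg adjustment over all genes tested, and all 35 members passed the filter on low counts. The values of the groups did not overlap for 6 of 35 members between IL10RAKO and WT (18.2% of all genes) and for 9 of 35 between DKO and WT (22.2% of all genes). Both comparisons use the same 4 WT mice. Leaving out 1 mouse lowered the IL10RAKO count to 4 when it was IL10RAKO mouse 2 or 8 or WT mouse 10 or 13, and adding WT mouse 11 lowered the DKO count from 8 to 4.

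TMM assumes that most genes do not change, and scaling by library totals alone moved the median log2 fold change of all genes from -0.07 to -0.38 in IL10RAKO and from -0.06 to -0.32 in DKO. The split of all calls then moved from 1143 higher and 933 lower to 651 and 2084 in IL10RAKO, and from 1213 and 1211 to 748 and 2140 in DKO. Under library totals 1 member was higher and 5 were lower in IL10RAKO, and 3 were higher and 3 lower in DKO. All values below are relative to the TMM scale.

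**Figure D2:**
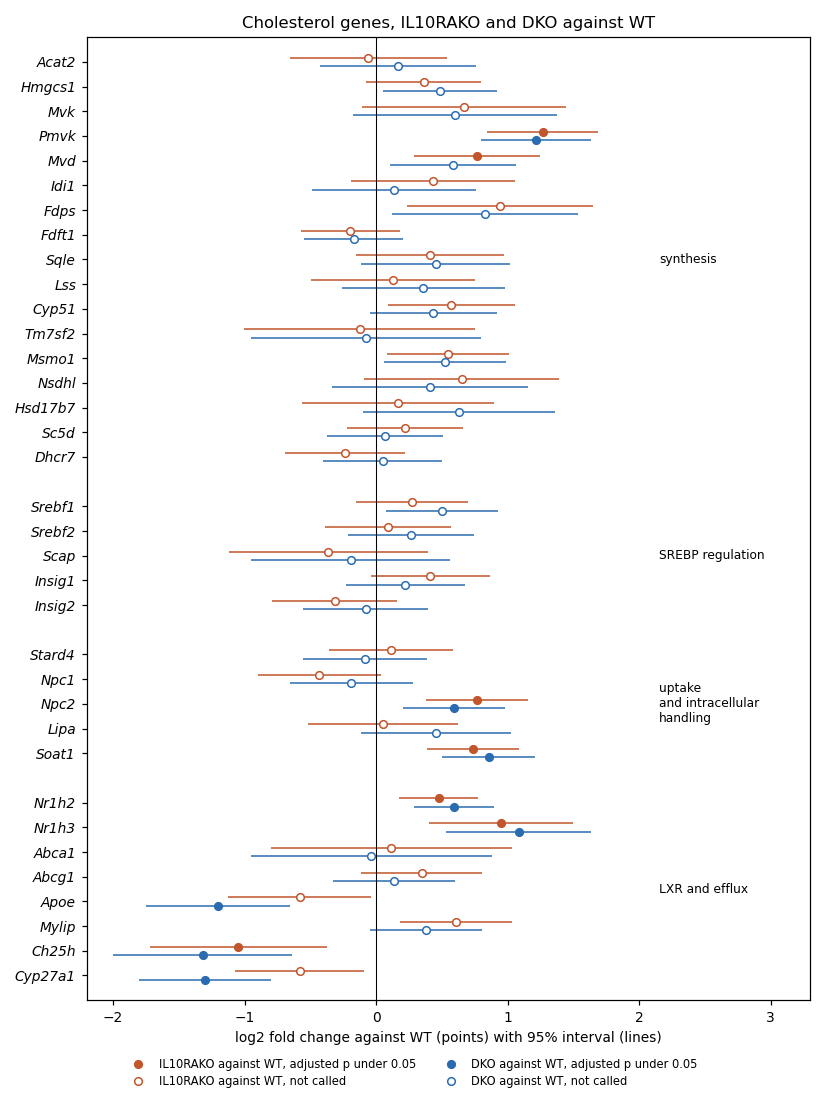
Log2 fold change (point) and 95% interval (line) of each of the 35 genes in IL10RAKO and DKO against WT, by role, from edgeR's quasi-likelihood fit of 12 mice, with filled points for an adjusted p under 0.05. Most synthesis genes lie right of 0 without being called, and *Apoe*, *Ch25h* and *Cyp27a1* lie furthest to the left.

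Of the 17 synthesis genes, 2 were higher in IL10RAKO (*Pmvk* and *Mvd*), 1 was higher in DKO (*Pmvk*) and 0 were lower in either. The share called was 11.8% in IL10RAKO and 5.88% in DKO, beside 15.8% and 18.5% of all genes. The log2 fold change was above 0 for 13 of 17 in IL10RAKO and for 15 of 17 in DKO. Their median was 0.41 in IL10RAKO and 0.44 in DKO, beside -0.07 and -0.06 over all genes tested. Under library totals, which also lowered the median of all genes as given above, the medians of the synthesis list were 0.11 and 0.18. A scaling factor shifts all genes of a comparison by about the same amount, so that the distance of the list from all genes (0.48 and 0.50 under TMM) hardly depends on it.

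*Pmvk* (chr3:89454541-89469013, plus strand, mm10) encodes phosphomevalonate kinase, which adds the second phosphate to mevalonate. It was at 23.3, 23.6, 18.4 and 21.8 CPM in WT mice 4, 5, 10 and 13, at 61.2, 58.9, 34.7 and 54.9 CPM in IL10RAKO mice 1, 2, 7 and 8, and at 62.5, 49.4, 45.6 and 44.7 CPM in DKO mice 3, 9, 12 and 14. Every knockout mouse was above every WT mouse, and IL10RAKO mouse 7 was the lowest of the knockouts. *Pmvk* rose by 1.27 ± 0.20 (log2 fold change ± SE, n = 4 against 4, adjusted p = 0.000521) in IL10RAKO and by 1.22 ± 0.20 (adjusted p = 0.000615) in DKO. Both calls held under each of the 21 other settings with a test, WT mouse 11 included, although *Pmvk* was at 2.71 CPM in that library.

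*Mvd* (chr8:122433601-122443422, minus strand) encodes the decarboxylase that turns mevalonate diphosphate into the first isoprenoid unit. It was at 24.7, 33.5, 26.01 and 19.2 CPM in the WT mice, at 47.3, 55.8, 28.8 and 44.3 CPM in the IL10RAKO mice, and at 36.6, 49.1, 37.0 and 32.6 CPM in the DKO mice, in the same order of mice. IL10RAKO mouse 7 and DKO mouse 14 were below WT mouse 5, so that the groups overlapped. *Mvd* rose by 0.77 ± 0.23 (adjusted p = 0.0324) in IL10RAKO, and its log2 fold change was 0.59 ± 0.23 (adjusted p = 0.0875) in DKO. The IL10RAKO call was lost when IL10RAKO mouse 1, 2 or 8 or WT mouse 4, 10 or 13 was left out (adjusted p = 0.0520 to 0.0997). It was also lost under library totals (0.44, adjusted p = 0.159), with WT mouse 11 (adjusted p = 0.104) and in the fit of the 2 genotypes alone (adjusted p = 0.0610). A call in DKO was gained without IL10RAKO mouse 7 (adjusted p = 0.0473).

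The other 15 synthesis genes were not called. *Fdps*, whose product joins isoprenoid units into farnesyl diphosphate, had the highest fold change of these and lay above *Mvd* with a wider error, at 0.94 ± 0.33 in IL10RAKO (adjusted p = 0.0702) and 0.83 ± 0.33 in DKO (adjusted p = 0.0987). *Cyp51* was at 0.57 ± 0.23 and 0.44 ± 0.23, and *Msmo1*, a sterol oxidase, at 0.55 ± 0.22 and 0.52 ± 0.22, with adjusted p between 0.107 and 0.206. *Hmgcs1* was at 0.36 ± 0.20 (adjusted p = 0.26) and 0.48 ± 0.20 (adjusted p = 0.117).

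*Mvk*, the kinase before *Pmvk*, was at 0.67 ± 0.36 and 0.60 ± 0.36. *Fdft1*, which encodes squalene synthase, and *Tm7sf2*, a sterol reductase, were below 0 in both comparisons, from -0.20 to -0.08. *Dhcr7*, which carries out the last reduction to cholesterol in one branch of the pathway, was at -0.24 ± 0.21 and 0.05 ± 0.21. The other 7 genes (*Acat2*, *Idi1*, *Sqle*, *Lss*, *Nsdhl*, *Hsd17b7* and *Sc5d*) lay between -0.06 and 0.65. For 8 of 17 genes in IL10RAKO and 10 of 17 in DKO the 95% interval lay within 1 log2 unit of 0 on both sides. Strand was not stated for the counting. Exons of *Fdps* overlap those of Gm43738 over 26.7% of their length, and exons of *Fdft1* those of the protease gene *Ctsb* on the other strand over 18.3%. How reads in these shared stretches were assigned is not known.

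In IL10RAKO the synthesis genes were high together in 1 mouse. IL10RAKO mouse 1 had the highest value of its genotype for 15 of 17 synthesis genes, and WT mouse 13 the lowest of its genotype for 8 of 17. Averaged over the 17 genes, log2(CPM + 1) minus the WT mean was 0.84 in IL10RAKO mouse 1, 0.47 in mouse 2, 0.10 in mouse 7 and 0.14 in mouse 8. The 4 DKO mice were at 0.53, 0.51, 0.27 and 0.42 and the 4 WT mice at 0.25, 0.09, -0.04 and -0.30. IL10RAKO mice 7 and 8 thus lay within the range of WT, and the lowest DKO mouse, at 0.27, was just above it. Without IL10RAKO mouse 1, 1 synthesis gene was called in IL10RAKO. The 4 dendritic cell markers (*Flt3*, *Zbtb46*, *Xcr1* and *Dpp4*), all detected, summed to 169, 149.8, 65.4 and 58.9 CPM in the WT mice, to 260.1, 179.7, 196 and 124 CPM in the IL10RAKO mice and to 193, 157, 159 and 119 CPM in the DKO mice. IL10RAKO mouse 1 was thus also the highest of the 12 in these markers, and the WT mice stood in the same order as in the synthesis genes. In IL10RAKO and in DKO the order of the mice differed between these markers and the synthesis genes. The epithelial markers summed to 160, 137, 36.6 and 94.3 CPM in the IL10RAKO mice. That order matched the synthesis genes in IL10RAKO, but not in WT or DKO. The part of dendritic or epithelial cells in the synthesis values was not tested.

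**Figure D3:**
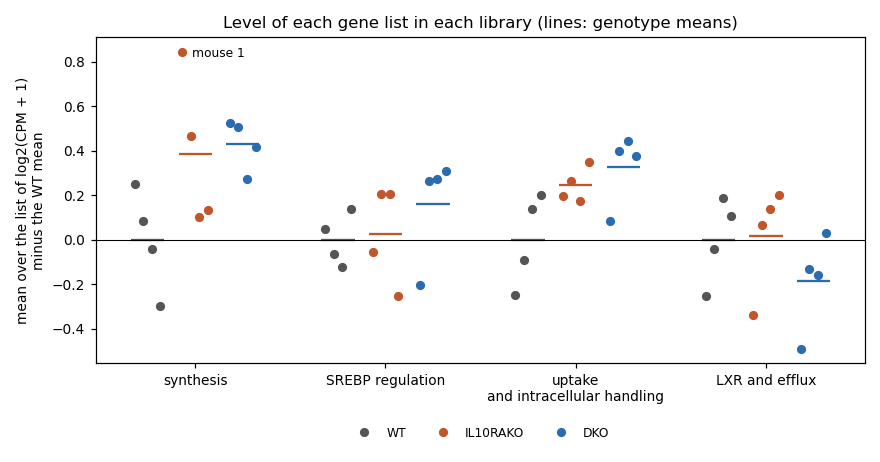
Mean over each gene list of log2(CPM + 1) minus the WT mean, for every library (points, 4 per genotype) with the genotype mean (line). In the synthesis list IL10RAKO mouse 1 stands at 0.84 and the DKO mice between 0.27 and 0.53, and in the LXR and efflux list the 3 genotypes overlap.

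Of the 5 SREBP regulators, edgeR and DESeq2 each called 0 in either comparison, when edgeR called 15.8% and 18.5% of all genes. The unadjusted p of edgeR was under 0.05 for 0 regulators in IL10RAKO and for 1 in DKO (*Srebf1*). *Srebf2*, which encodes the SREBP that mainly drives cholesterol synthesis, was at 339, 211, 169 and 180.1 CPM in WT, at 237, 241, 299 and 183 CPM in IL10RAKO and at 212, 286, 302 and 282 CPM in DKO. WT mouse 4 was the highest of all, and the groups overlapped. Its log2 fold change was 0.09 ± 0.22 (adjusted p = 0.821) in IL10RAKO, where the sign turned under library totals (-0.20), and 0.26 ± 0.22 (adjusted p = 0.454) in DKO.

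*Srebf1*, whose product mainly serves fatty acid synthesis and which is itself a target of LXR, was at 103, 70.6, 74.6 and 62.8 CPM in WT, at 113, 101, 87.9 and 74.9 CPM in IL10RAKO and at 81.6, 117, 106 and 135 CPM in DKO. WT mouse 4 was again the highest of its genotype and overlapped both knockouts. The log2 fold change was 0.28 ± 0.20 (adjusted p = 0.39) in IL10RAKO, where the sign turned under library totals (-0.030), and 0.50 ± 0.20 (adjusted p = 0.0998) in DKO. Without WT mouse 4 the DKO difference was called at 0.67 (adjusted p = 0.0259).

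*Insig1*, which is itself switched on by SREBPs, was at 89.3, 107, 65.3 and 112 CPM in WT, at 127, 149, 137 and 84.9 CPM in IL10RAKO and at 86.4, 128, 119 and 103 CPM in DKO. It was higher than the WT maximum in 3 of 4 IL10RAKO mice, without a call at 0.41 ± 0.21 (adjusted p = 0.214), and stood at 0.22 ± 0.21 (adjusted p = 0.507) in DKO, where the sign turned under library totals (-0.036). *Insig2* was at 18.1, 20.1, 35.5 and 29.4 CPM in WT, at 18.5, 21.5, 16.8 and 26.2 CPM in IL10RAKO and at 25.3, 24.7, 22.4 and 25.1 CPM in DKO. All knockout values lay below WT mouse 13, and the log2 fold change was -0.31 ± 0.22 (adjusted p = 0.375) in IL10RAKO and -0.08 ± 0.22 (adjusted p = 0.843) in DKO. Under library totals *Insig2* was called as lower in IL10RAKO at -0.65 (adjusted p = 0.0497). *Scap* was at -0.36 ± 0.35 and -0.19 ± 0.35.

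Of the 5 genes of uptake and intracellular handling, 2 were higher in IL10RAKO and in DKO and 0 were lower. This is 40% of a list of 5 in each comparison, beside 15.8% and 18.5% of all genes. *Soat1* (chr1:156424525-156474331, minus strand) encodes the enzyme that esterifies cholesterol for storage in lipid droplets. It was at 121, 119, 159 and 116 CPM in WT, at 243, 207, 176 and 232 CPM in IL10RAKO and at 192, 244, 224 and 273 CPM in DKO. WT mouse 10 was the highest of the WT mice and still below every knockout mouse. *Soat1* rose by 0.74 ± 0.17 (adjusted p = 0.00703) in IL10RAKO and by 0.86 ± 0.17 (adjusted p = 0.00224) in DKO, and lost its call under library totals in IL10RAKO (0.41, adjusted p = 0.0739).

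*Npc2* (chr12:84754562-84773152, minus strand) encodes the soluble protein that hands lysosomal cholesterol to the membrane protein NPC1. It was at 233, 272, 352 and 324 CPM in WT, at 417, 516, 423 and 653 CPM in IL10RAKO and at 412, 463, 401 and 502 CPM in DKO. No knockout mouse fell within the range of WT. *Npc2* rose by 0.77 ± 0.18 (adjusted p = 0.00981) in IL10RAKO and by 0.59 ± 0.18 (adjusted p = 0.0349) in DKO. Library totals ended both calls (adjusted p = 0.0773 and 0.170), and the DKO call was also lost without WT mouse 4, WT mouse 5, DKO mouse 9 or DKO mouse 14 (adjusted p = 0.0679 to 0.0938), with WT mouse 11 (adjusted p = 0.121) and with a minimum of 10 counts in every library (adjusted p = 0.0521).

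*Npc1* was at -0.43 ± 0.22 (adjusted p = 0.209) in IL10RAKO and -0.19 ± 0.22 in DKO. *Lipa*, the lysosomal lipase that frees cholesterol from its esters, was at 0.05 ± 0.27 and 0.46 ± 0.27, and *Stard4*, a sterol transporter of the cytosol, at 0.11 ± 0.22 and -0.08 ± 0.22. None of these 3 was called.

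The LXR and efflux arm split between members that rose and members that fell. Of its 8 genes, 2 were higher and 1 lower in IL10RAKO, and 2 were higher and 3 lower in DKO. The share called in this short list was 37.5% in IL10RAKO and 62.5% in DKO, beside 15.8% and 18.5% of all genes. The list medians of 0.23 and 0.05 hide the opposite signs. *Nr1h3* (chr2:91184061-91202834, minus strand) was at 18.4, 31.6, 35.3 and 36.7 CPM in WT, at 44.5, 51.7, 50.3 and 89.6 CPM in IL10RAKO and at 53.4, 67.5, 58.8 and 78.6 CPM in DKO. All knockout mice were above all 4 WT mice, with IL10RAKO mouse 8 the highest. *Nr1h3* rose by 0.95 ± 0.26 (adjusted p = 0.0207) in IL10RAKO and by 1.08 ± 0.26 (adjusted p = 0.00876) in DKO. The IL10RAKO call was lost without IL10RAKO mouse 8 (adjusted p = 0.0751) and under library totals (adjusted p = 0.0911). WT mouse 11 was at 75.5 CPM, within the knockout range, and adding it ended both calls (adjusted p = 0.282 and 0.173).

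*Nr1h2* (chr7:44549616-44553951, minus strand), the LXR gene expressed in most cell types, was at 112, 117, 107 and 85.0 CPM in WT, at 152, 159.7, 125 and 149 CPM in IL10RAKO and at 159, 152, 169 and 154 CPM in DKO. The ranges did not overlap, and the DKO mice were close together. *Nr1h2* rose by 0.47 ± 0.14 (adjusted p = 0.0349) in IL10RAKO and by 0.59 ± 0.14 (adjusted p = 0.00969) in DKO. The IL10RAKO call was lost in 11 of 21 other settings, among them library totals (0.15, adjusted p = 0.442) and leaving out IL10RAKO mouse 1, 2 or 8, DKO mouse 9 or WT mouse 10 or 13 (adjusted p = 0.0502 to 0.0973). The DKO call was lost under library totals (0.34, adjusted p = 0.104) and with WT mouse 11 (adjusted p = 0.390), which was at 219 CPM. A pseudogene, *Nr1h2-ps*, could share reads with *Nr1h2*.

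The exporters themselves were not called. *Abca1*, which loads cholesterol onto lipid-poor apolipoproteins, varied from 46.3 to 235 CPM within IL10RAKO alone, and its log2 fold change was 0.12 ± 0.43 (95% interval -0.80 to 1.03) in IL10RAKO and -0.04 ± 0.43 (-0.95 to 0.88) in DKO. *Abcg1*, which exports cholesterol to HDL, was at 0.35 ± 0.22 (-0.11 to 0.81) and 0.14 ± 0.22 (-0.32 to 0.60). *Mylip*, an LXR target whose product marks lipoprotein receptors for degradation, was at 0.61 ± 0.20 (adjusted p = 0.0521) and 0.38 ± 0.20 (adjusted p = 0.212).

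*Apoe* (chr7:19696109-19699188, minus strand) was at 15234, 14171, 20896 and 18871 CPM in WT, at 10245, 6065, 14123 and 15808 CPM in IL10RAKO and at 6227, 8751, 6739 and 8336 CPM in DKO. All DKO mice were below all WT mice, while IL10RAKO mouse 8 lay within the WT range. *Apoe* fell by 1.20 ± 0.26 on the log2 scale (adjusted p = 0.00466) in DKO and was at -0.58 ± 0.25 (adjusted p = 0.144) in IL10RAKO. It took 0.606% to 0.795% of the reads in DKO and 0.554% to 1.37% in IL10RAKO. The DKO call held in each of the 21 other settings, and library totals added a call in IL10RAKO (-0.90, adjusted p = 0.0177).

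*Cyp27a1* (chr1:74713574-74737892, plus strand), a mitochondrial enzyme that makes an oxysterol ligand of LXR, was at 104, 174, 212 and 213 CPM in WT, at 105, 124, 144 and 97.5 CPM in IL10RAKO and at 50.0, 83.2, 77.3 and 74.8 CPM in DKO. WT mouse 4 overlapped the IL10RAKO mice but not the DKO mice, which were the lowest of the 12. *Cyp27a1* fell by 1.30 ± 0.23 on the log2 scale (adjusted p = 0.00135) in DKO, in each of the 21 other settings too. In IL10RAKO it was at -0.58 ± 0.23 (adjusted p = 0.107), and a call was gained without WT mouse 4 (-0.76, adjusted p = 0.0161) and under library totals (-0.90, adjusted p = 0.0200).

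*Ch25h* (chr19:34473778-34475164, minus strand) encodes an enzyme that hydroxylates cholesterol to another oxysterol, and was the least abundant of the members called. It was at 10.6, 7.03, 9.48 and 11.5 CPM in WT, at 5.08, 3.74, 3.94 and 5.94 CPM in IL10RAKO and at 2.87, 3.05, 3.51 and 6.03 CPM in DKO. Every WT mouse was above every knockout mouse. *Ch25h* fell by 1.05 ± 0.32 on the log2 scale (adjusted p = 0.0366) in IL10RAKO and by 1.32 ± 0.32 (adjusted p = 0.00988) in DKO. The IL10RAKO call was lost without IL10RAKO mouse 1, 2 or 7 or WT mouse 4, 10 or 13 (adjusted p = 0.0560 to 0.100) and without the filter on low counts (adjusted p = 0.0662). WT mouse 11 was at 2.12 CPM, and adding it ended both calls (adjusted p = 0.297 and 0.150). Exons of Gm26902 on the other strand overlap 11.5% of those of *Ch25h*. The fibroblast markers, summed, were also higher in each WT mouse than in each knockout mouse, and their part in the lower *Apoe*, *Cyp27a1* and *Ch25h* was not tested. The sums of the gated-out genes and of the neutrophil markers were higher in each knockout mouse than in each WT mouse. *Ly6c2* made up most of the first sum and *Csf3r* most of the second. *Itgae* and *Retnlg* overlapped between WT and both knockouts, and *Ly6g* between WT and IL10RAKO. The part of the gated-out and neutrophil genes in the members that rose was not tested.

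**Figure D4:**
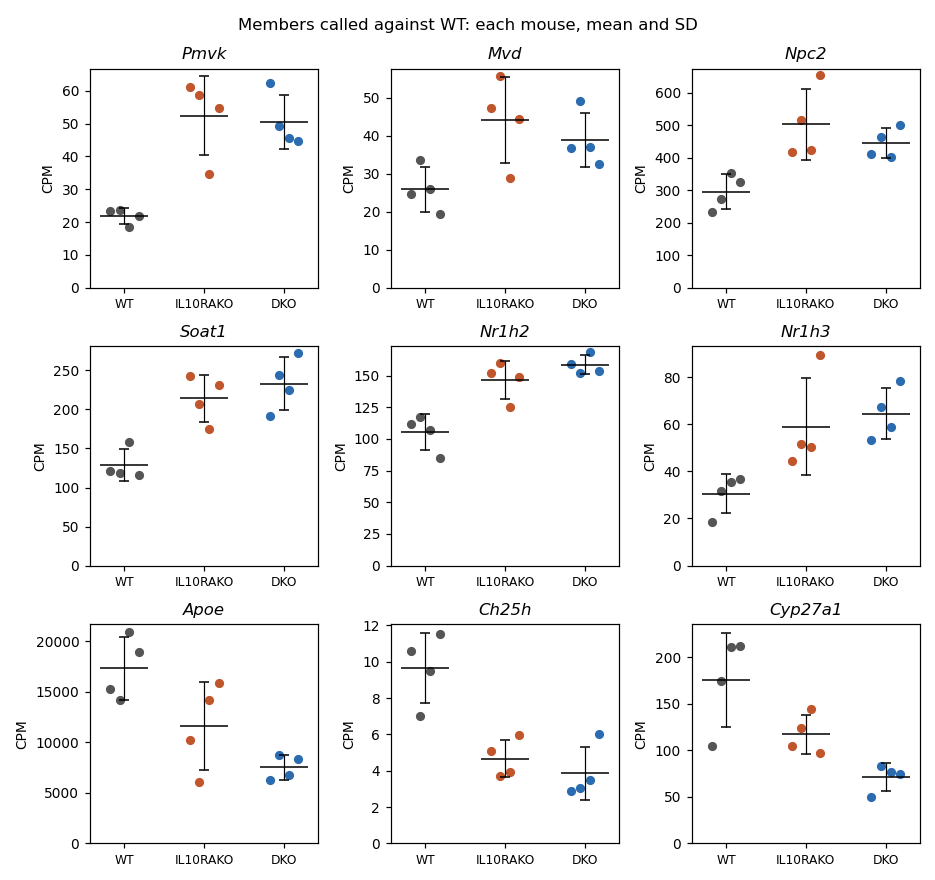
CPM of the 9 genes called in at least 1 comparison with WT, in each of 4 mice per genotype (points) with the mean (long bar) and SD (error bar), on axes that start at 0. *Pmvk*, *Npc2*, *Soat1*, *Nr1h2* and *Nr1h3* are higher in every knockout mouse than in every WT mouse, and *Ch25h* is lower. *Apoe* and *Cyp27a1* separate DKO, but not IL10RAKO, from WT.

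Between DKO and IL10RAKO, which differ in *Ccr2*, 0 of 35 members were called by edgeR or by DESeq2, when edgeR called 0.0457% of all genes (6 of 13136). The unadjusted p was under 0.05 for 2 members, *Cyp27a1* (log2 difference -0.72 ± 0.23) and *Apoe* (-0.62 ± 0.25), and every adjusted p was 0.99992 or more. *Cyp27a1* was the only member whose groups did not overlap (2.41% of all genes). For 31 of 35 members the 95% interval of the difference lay within 1 log2 unit of 0, with medians of -0.02 for the synthesis genes and -0.22 for LXR and efflux genes, beside -0.01 over all genes. These intervals do not show that the genotypes were alike. That of *Lipa*, counted as within, ran from -0.16 to 0.98, and those of the other 4 members went beyond 1 log2 unit. The larger negative fold changes of *Apoe* and *Cyp27a1* in DKO than in IL10RAKO were thus not called as a difference between the 2 knockouts.

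Sterol genes outside the 35 were read from a list of 21 genes. In IL10RAKO 3 were higher and 1 was lower, around a median of 0.02 on the log2 scale, and in DKO 1 was higher and 2 were lower, around 0.03. The share called was 19.0% in IL10RAKO and 14.3% in DKO, beside 15.8% and 18.5% of all genes. *Pltp*, the phospholipid transfer protein and an LXR target, was at 889, 647, 817 and 754 CPM in WT, at 261, 199, 352 and 393 CPM in IL10RAKO and at 194, 249, 162 and 200.1 CPM in DKO. It fell by 1.37 ± 0.21 on the log2 scale (adjusted p = 0.000512) in IL10RAKO and by 1.95 ± 0.22 (adjusted p = 2.79e-05) in DKO, without overlap in either, and its exons overlap those of *Ctsa* on the other strand over 19.3% of their length.

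*Ebp*, a sterol isomerase of the synthesis pathway, rose by 0.75 ± 0.22 (adjusted p = 0.0318) in IL10RAKO and was at 0.63 ± 0.22 (adjusted p = 0.0588) in DKO. *Smpdl3a*, a phosphodiesterase related to sphingomyelinases, rose by 0.66 ± 0.20 (adjusted p = 0.0360) and by 0.79 ± 0.20 (adjusted p = 0.0117). *Hsd3b7*, a bile acid synthesis gene, rose by 0.96 ± 0.30 (adjusted p = 0.0412) in IL10RAKO and was at 0.74 ± 0.30 (adjusted p = 0.100) in DKO, and shares 62.0% of its exon length with a gene on its own strand. *Gramd1a*, a sterol transporter at membrane contacts, fell by 0.58 ± 0.19 on the log2 scale (adjusted p = 0.0491) in DKO. None of 8 fatty acid synthesis genes, which SREBPs also drive, was called in edgeR in either comparison, when edgeR called 15.8% and 18.5% of all genes. Medians of these 8 were -0.39 in IL10RAKO and -0.24 in DKO, while 1 and 2 of them had an unadjusted p under 0.05. DESeq2 called 1 as lower in IL10RAKO (*Acaca*) and 0 in DKO.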

How the data were processed

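Per the labels and the paper's methods, live CD45+ CD64+ CD11b+ MHCII+ Ly6C- cells were sorted from single mice, and cDNA made with SmartSeq v4 was sequenced as paired-end reads. The submitters' processing notes name bcl2fastq 2.20, STAR 2.5.1b, edgeR 3.34.0 and mm10. The deposited counts are whole numbers of reads per gene, not normalized, and the authors also deposited a score per gene and library, the edgeR pseudocount (13338 genes, 12 libraries). Annotation, strand setting and treatment of multiply aligned reads are not given in the sources used here. All per-sample columns were mapped to samples (0 left out).

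Groups came from the labels. Counts of the 12 libraries in the pseudocount table were filtered with filterByExpr (minimum count 10), which left 13136 genes, scaled with TMM and fitted with 1 coefficient per genotype in R 4.3.3 by edgeR 4.0.16 (glmQLFit with its default deviance, glmQLFTest, limma 3.58.1), with Benjamini-Hochberg adjustment over all genes tested. No batch, sex or litter is labelled. SE and 95% intervals come from the same fit, and the fit was tested on simulated data. P-values weigh a difference between genotypes against the spread between these mice, estimated over all genotypes together. With 1 library per mouse, spread between mice and between preparations cannot be told apart. No 2 libraries of a genotype were near duplicates (chi-square per degree of freedom at least 31.8). Positions and exon lengths are from GENCODE M21 (GRCm38), upstream sequences from RefSeq (GRCm38.p6). List levels used log2(CPM + 1).

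Named were all members called in any comparison, both LXR, both SREBF and both INSIG genes, and of the other lists those called. The members and lists were chosen with earlier results of these data known. Alternatives were RLE size factors, library totals, no filter, 10 counts in every library, robust dispersion, bias-adjusted deviance, only the 2 genotypes compared, WT mouse 11 added, DESeq2 1.42.0 and leaving out each mouse. The deposited pseudocounts were added after seeing the data. Python 3.11.15 with pandas 2.3.3 served for tables, and matplotlib 3.10.9 for plots.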

Additional observations from a re-analysis of the deposited data

Results flagged for a closer look

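In 7 of the 105 sets of 4 mice examined (35 genes in 3 genotypes), 1 mouse stood far from the other 3 by Dixon's test, when chance alone gives about 5 in 100. Values are log2(CPM + 1), and DKO mouse 12 accounts for 3 of them. In that mouse *Sqle* was at 5.83 (others 6.10 to 6.13), *Cyp51* at 6.58 (others 6.82 to 6.86) and *Tm7sf2* at 3.26 (others 3.07 to 3.10). *Stard4* was at 3.81 in DKO mouse 14 (others 4.43 to 4.54), and *Lipa* at 6.60 in DKO mouse 3 (others 7.46 to 7.60). *Msmo1* was at 5.47 in WT mouse 13 (others 5.99 to 6.09). *Soat1*, a gene called in both comparisons with WT, was at 7.32 in WT mouse 10 (others 6.87 to 6.93), which lies on the side of the knockouts.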

How the results depend on the processing

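Each of 13 named members was recomputed in 3 comparisons under 21 other settings with a test. A call was lost in 44 instances and gained in 6, and the sign turned in 12, none of them for a called value. The calls of *Pmvk* in both knockouts, of *Soat1*, *Apoe* and *Cyp27a1* in DKO held throughout. Under library totals *Srebf1* (-0.030) and *Srebf2* (-0.20) turned in IL10RAKO against WT, *Insig1* (-0.036) in DKO against WT and *Pmvk* (0.020) in DKO against IL10RAKO. With WT mouse 11, *Srebf1* (-0.16) turned in IL10RAKO and *Insig2* (0.22) in DKO. When 1 mouse was left out, *Srebf2* in IL10RAKO ranged from -0.028 to 0.37 (also -0.019 below 0), *Insig2* in DKO from -0.21 to 0.12 and *Pmvk* in DKO against IL10RAKO from -0.19 to 0.033 (also 0.0034 and 0.0090 above 0). The cause of these changes was not tested.

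Of all genes, 6 were called between DKO and IL10RAKO by edgeR, 24 by DESeq2, 4 with the bias-adjusted deviance or with WT mouse 11, and 4 to 10 with 1 mouse left out. Called synthesis genes in IL10RAKO went from 2 to 1 under library totals and in the fit of 2 genotypes, and called LXR and efflux genes from 3 to 1 without a filter and with WT mouse 11. With WT mouse 11 that 1 gene was not among the 3 of the main fit. *Nr1h2*, *Nr1h3* and *Ch25h* all lost their calls there (adjusted p = 0.628, 0.282 and 0.297 in edgeR). In DKO, DESeq2 called 2 synthesis genes in place of 1, and with WT mouse 11 the members called went from 8 to 4 and the LXR and efflux genes from 5 to 2. With 1 mouse left out, the counts were 4 to 8 members, 1 to 3 synthesis and 1 to 4 LXR and efflux genes in IL10RAKO, and 7 to 10, 1 to 3 and 5 to 5 in DKO. The deposited pseudocounts moved 0 values by more than the spread between mice. No paired analysis was possible because the groups hold different mice. Low counts limit *Ch25h* and *Tm7sf2* most.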

Other observations

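The CCR2KO library has no replicate, and its values are given without a test. In it *Pmvk* was at 24.3 CPM, *Mvd* at 34.3 CPM, *Npc2* at 315 CPM, *Soat1* at 113 CPM, *Nr1h2* at 116 CPM, *Nr1h3* at 22.7 CPM, *Apoe* at 15920 CPM, *Cyp27a1* at 120.4 CPM and *Ch25h* at 12.1 CPM. For 5 of these 9 genes the value lay within the range of the 4 WT mice.

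WT mouse 11 had reads for 11670 genes, against 13485 to 15450 in the 12 libraries compared, and its epithelial markers summed to 2425 CPM. *Acat2* and *Hsd17b7* had 0 reads there, when 3 reads are worth 0.220 CPM in this library. *Pmvk* (2.71 CPM), *Mvd* (4.91 CPM) and *Cyp51* (29.7 CPM) were below all 12 libraries, whereas *Fdft1* (136 CPM), *Dhcr7* (57.3 CPM), *Srebf1* (218 CPM) and *Nr1h2* (219 CPM) were above all 12.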
